A study of Arabidopsis thaliana with 6 samples.

Results

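PDF1.2a, PDF1.2b, PR4 and HCHIB are 4 genes of the plant defence response that jasmonate and ethylene induce together. Each was read from 1 probe set, picked by gene name with earlier results of these data known, and these are 4 of 22746 probe sets on the array once controls are left out. RNA of Arabidopsis thaliana plants 3 weeks old was measured on 6 oligonucleotide arrays, 2 from the vip5 mutant, 2 from the vip6 mutant and 2 from wild type (WT). VIP5 and VIP6 encode subunits of the Paf1 complex, which travels with RNA polymerase II. The labels give no allele, accession, tissue, treatment or growth condition for any group, and do not say whether the replicates were separate plants or cultures. The spread behind each p-value is that between arrays, and it may be technical. No inducing treatment is named, so the values are taken as levels of plants without a stated elicitor.

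The platform annotation gives the PDF1.2a probe set to AT5G44420 (PDF1.2, also PDF1.2a) and the PDF1.2b probe set to AT2G26020, as the choice of members does. It does not list the other 2 probe sets, so their assignment to PR4 (AT3G04720) and to HCHIB (AT3G12500) comes from the choice of members alone and was not checked here. With the array's name before the dot, the probe sets are ATH1.249052_at for PDF1.2a, ATH1.257365_x_at for PDF1.2b, ATH1.258791_at for PR4 and ATH1.256243_at for HCHIB. The names PR4 and HCHIB stand below for the last 2 of these. In the TAIR10.1 gene table PDF1.2a lies next to PDF1.2c (AT5G44430), and PDF1.2b lies next to PDF1.3 (AT2G26010). The suffix x_at of the PDF1.2b probe set marks a design in which some probes may also bind other transcripts, and the defensins of this family are close in sequence. The PDF1.2a and PDF1.2b signals may thus share transcripts, and how far they do was not tested.

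Jasmonate is made from fatty acids, and its conjugate with isoleucine binds the receptor COI1, which leads to the loss of JAZ repressors. The jasmonate response has a wound branch led by MYC transcription factors and a branch shared with ethylene, led by ERF1 and ORA59. PDF1.2a is the standard marker of the shared branch, and its promoter is a known target of ERF factors in leaves attacked by necrotrophic fungi. PDF1.2 defensins are small secreted antifungal peptides, PR4 is a hevein-like chitin-binding protein, and HCHIB is a basic chitinase, also called PR3.

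Both defensin probe sets were dim on every mutant array and brighter on the WT arrays, where PDF1.2a on replicate 2 was near the middle of its array. PDF1.2a read 25.2 and 26.6 in vip5, 23.2 and 38.2 in vip6, and 517.9 and 175 in WT, in deposited intensity units, replicates 1 and 2 of each group in that order. PDF1.2b read 16.8 and 47.2 in vip5, 37.2 and 40.4 in vip6, and 858 and 417.9 in WT. For neither defensin did a mutant array reach the lower WT array. The same holds for 13.2% of all tested probe sets, so it says little on its own. For each defensin the 2 WT arrays differed by more intensity units than any 2 mutant arrays did. Placed among all probe sets of its array, PDF1.2a was brighter than 18.5% to 24.2% on the 4 mutant arrays, and brighter than 72.4% and 48.3% on WT arrays 1 and 2. PDF1.2b was brighter than 15.8% to 26.3% on the mutant arrays and than 82.2% and 68.0% on the WT arrays. The mutant signals of both defensins thus lay in the dim part of the array, where no detection call or background value is at hand to say whether a transcript was measured.

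PR4 was lower in both mutants but stayed above the middle of each array. It read 308.4 and 210.2 in vip5, 353.9 and 247.2 in vip6, and 1215.7 and 1308.1 in WT. The groups of mutants and WT did not overlap, and the WT arrays were close to each other. On the mutant arrays it was brighter than 53.3% to 64.1% of probe sets, and on the WT arrays than 87.5% and 88.6%.

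HCHIB did not share this pattern. It read 113.9 and 74.4 in vip5, 126.3 and 179.4 in vip6, and 144.6 and 42 in WT. The WT arrays lay on both sides of the 2 vip5 arrays, and the lower vip6 array lay below the higher WT array. The lowest value of the 6 was WT replicate 2.

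**Figure D1:**
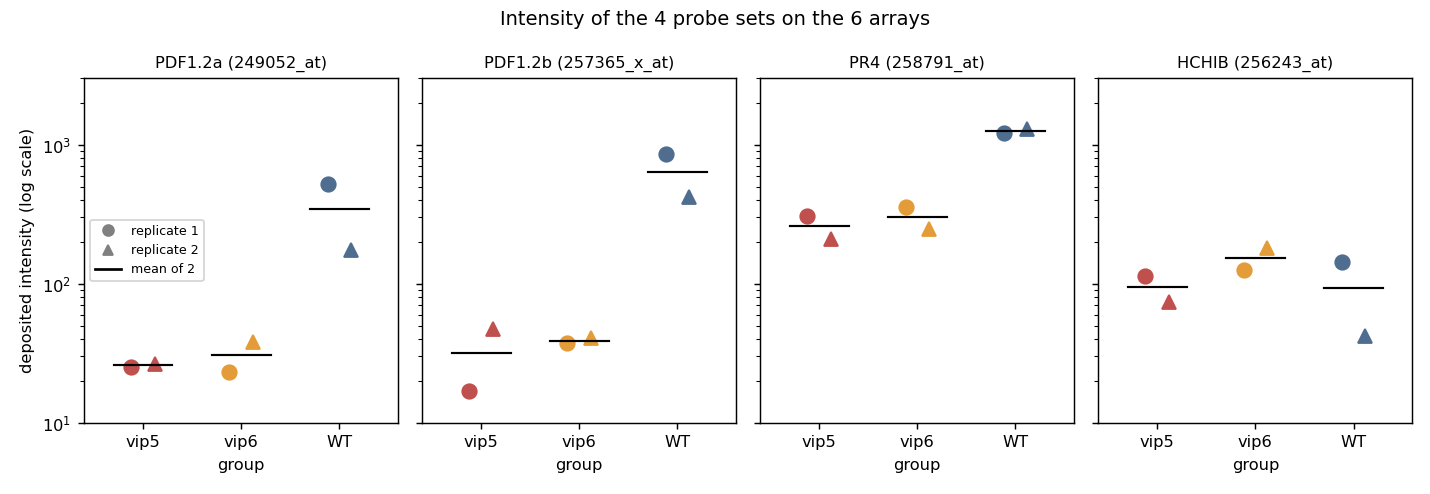
Deposited intensity (log axis) of the 4 probe sets in vip5, vip6 and WT, with 1 point per array (circle, replicate 1; triangle, replicate 2) and a bar at the mean of 2. The defensins and PR4 lie lower on every mutant array than on both WT arrays, as do 13.2% of all tested probe sets. HCHIB overlaps between the mutants and WT.

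The vip5 arrays were set against WT to ask how these genes differ when VIP5 is mutated. Testing was limited to probe sets brighter than the 40th percentile of an array on 2 arrays or more. Both defensins met this through the WT arrays alone, with 0 of 4 mutant arrays above it, so to be tested at all they had to be higher in WT, and their calls are no support for the direction. PR4 was above it on all 6 arrays, and HCHIB on 1 of 2 vip5, 2 of 2 vip6 and 1 of 2 WT arrays. PDF1.2b averaged 32.0 ± 21.5 in vip5 and 638 ± 311 in WT (SD, n = 2 each), and no fold is given against the dim mutant signals of the defensins. On the log2(intensity + 39.3) scale, where 39.3 is a pseudocount near the 25th percentile of an array, the change was understated for dim signals and came to -3.20 (standard error 0.34, limma adjusted p = 0.0373, and 0.181 without the filter). PR4 fell to 259 ± 69.4 in vip5, against 1262 ± 65.3 in WT, a 4.87-fold lower mean, with a log2 change of -2.14 (standard error 0.24, limma adjusted p = 0.0431). PDF1.2a averaged 25.9 ± 0.99 in vip5 and 346 ± 242 in WT. Its log2 change of -2.41 (standard error 0.40) did not pass, with a limma adjusted p of 0.114. A block on the replicate number gave it an adjusted p of 0.0162, and 0.134 with the block and without the filter, but the labels do not say that the numbers pair the arrays. HCHIB averaged 94.2 ± 27.9 in vip5 and 93.3 ± 72.5 in WT, with a log2 difference of 0.11, a 95% interval of -0.77 to 0.99 and a limma adjusted p of 0.946.

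Across the array 0.0419% of 14323 tested probe sets passed as lower in vip5, 6 in all, with PR4 among these, and PDF1.2b too under the limit of the filter. In order of log2 change from the lowest, PDF1.2b was at place 2, PDF1.2a at place 8 and PR4 at place 11 of 14323, and 65.3% of probe sets lay below HCHIB. The defensins were tested only through their WT signals, so their low places are no support for the direction. Arrays of both vip5 replicates below both WT arrays were found for 20.8% of probe sets, so the lack of overlap on its own says little.

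Within replicate number 1 and within number 2, the log2 change in vip5 was -3.11 and -1.70 for PDF1.2a, -4.0 and -2.40 for PDF1.2b, and -1.85 and -2.43 for PR4. For HCHIB it was -0.26 and 0.48, so the direction differed between the numbers. Control transcripts added for hybridisation had signals on number 2 that were 1.84 to 6.46 times those on number 1 over the 3 groups, and the part of this in the member values was not tested. The calls rest on few arrays and on the filter. Without the filter the adjusted p of PR4 was 0.181, and with a pseudocount of 16 that of PR4 was 0.0507. With 1 array left out, the adjusted p of PDF1.2b was 0.217 and 0.0798 without WT replicates 1 and 2, and 0.168 and 0.128 without vip5 replicates 1 and 2. That of PR4 was 0.332, 0.450, 0.0853 and 0.254 without the same arrays, while both stayed below the threshold without either vip6 array. The log2 change itself stayed between -3.69 and -2.71 for PDF1.2b, between -3.10 and -1.72 for PDF1.2a, and between -2.38 and -1.90 for PR4 over these 6 fits. Fits without a vip6 array gave the same values as the fit with only the vip5 and WT arrays. They are thus no check on the vip5 or WT values.

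The same question was asked of VIP6. PDF1.2b averaged 38.8 ± 2.26 in vip6 and 638 ± 311 in WT (SD, n = 2 each), with a log2 change of -3.04 (standard error 0.34, limma adjusted p = 0.0365, and 0.171 without the filter that it passed through WT alone). PR4 fell to 301 ± 75.4 in vip6, against 1262 ± 65.3 in WT, a 4.20-fold lower mean, with a log2 change of -1.95 (standard error 0.24, limma adjusted p = 0.0484). PDF1.2a averaged 30.7 ± 10.6 in vip6 and 346 ± 242 in WT, with a log2 change of -2.31 that did not pass (standard error 0.40, limma adjusted p = 0.128). With the block its adjusted p was 0.0203, and 0.159 with the block and without the filter. HCHIB averaged 153 ± 37.5 in vip6 and 93.3 ± 72.5 in WT, with a log2 difference of 0.64, a 95% interval of -0.24 to 1.51 and a limma adjusted p of 0.639. This difference was 1.23 without WT replicate 1 and 0.049 without WT replicate 2.

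As lower in vip6, 0.0698% of tested probe sets passed, 10 in all, with PR4 among these, and PDF1.2b too under the limit of the filter. PDF1.2b was at place 2, PDF1.2a at place 10 and PR4 at place 14 from the lowest log2 change, and 97.4% of probe sets lay below HCHIB. The places of the defensins are again no support for the direction, as the filter passed them through WT alone. Within numbers 1 and 2 the log2 change was -3.16 and -1.47 for PDF1.2a, -3.55 and -2.52 for PDF1.2b, -1.67 and -2.23 for PR4, and -0.15 and 1.43 for HCHIB. Neither call held in every fit. Without the filter the adjusted p of PR4 was 0.171, and with only the vip6 and WT arrays it was 0.0525 for PDF1.2b and 0.0588 for PR4. With a pseudocount of 16 that of PR4 was 0.0519. Leaving out any of the 6 arrays put both above the threshold. For PDF1.2b the adjusted p was 0.335 and 0.0837 without WT replicates 1 and 2, 0.175 and 0.167 without vip6 replicates 1 and 2, and 0.0525 without either vip5 array. For PR4 it was 0.352, 0.450, 0.127 and 0.209 without the same WT and vip6 arrays, and 0.0588 without either vip5 array. The log2 change stayed between -3.52 and -2.55 for PDF1.2b, between -3.0 and -1.62 for PDF1.2a, and between -2.18 and -1.73 for PR4. Fits without a vip5 array gave the same values as the fit with only the vip6 and WT arrays, so they add no further check.

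**Figure D2:**
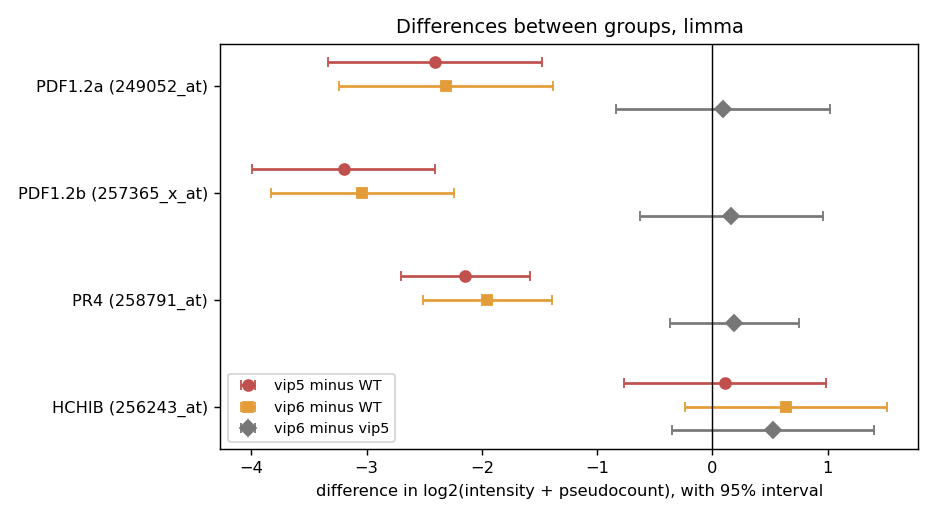
Difference in log2(intensity + pseudocount) with its 95% interval, without adjustment for multiple tests, for the 4 members, for vip5 minus WT, vip6 minus WT and vip6 minus vip5. The intervals of the defensins and of PR4 lie below 0 against WT in both mutants, and those of vip6 minus vip5 all span 0. The defensins were tested only through their WT signals, so their intervals are no support for the direction.

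The comparisons of vip5 and of vip6 use the same 2 WT arrays, so they are not independent of each other. A contrast of the mean of both mutants with WT puts the 4 mutant arrays together. In it the log2 change was -3.12 for PDF1.2b (standard error 0.30, limma adjusted p = 0.0150), -2.36 for PDF1.2a (standard error 0.35, limma adjusted p = 0.0482) and -2.05 for PR4 (standard error 0.21, limma adjusted p = 0.0158). PR4 belongs to the 0.223% of tested probe sets that passed as lower, 32 in all. The defensins do too, but they were tested only because their WT signals are high, and without the filter their adjusted p was 0.140 for PDF1.2a and 0.0772 for PDF1.2b. All 4 mutant arrays below both WT arrays were found for 13.2% of probe sets. HCHIB had a log2 difference of 0.37 with a 95% interval of -0.38 to 1.13 and a limma adjusted p of 0.689.

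Both defensins were tested only through their WT signals, and neither passed without the filter. The fits without an array kept the same filter. Their adjusted p-values in the fits below are thus no support for the direction, nor for how firm their calls are. The PDF1.2a call in this contrast was close to the threshold. Its adjusted p was 0.0563 with quantile normalization and 0.0751 with a pseudocount of 100. It was 0.211 and 0.0527 without WT replicates 1 and 2, 0.130 and 0.120 without vip5 replicates 1 and 2, and 0.0890 and 0.0784 without vip6 replicates 1 and 2. PDF1.2b and PR4 kept an adjusted p below the threshold when any mutant array was left out. Without WT replicates 1 and 2 theirs were 0.179 and 0.0527 for PDF1.2b and 0.211 and 0.297 for PR4, and without the filter that of PR4 was 0.0772.

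**Figure D3:**
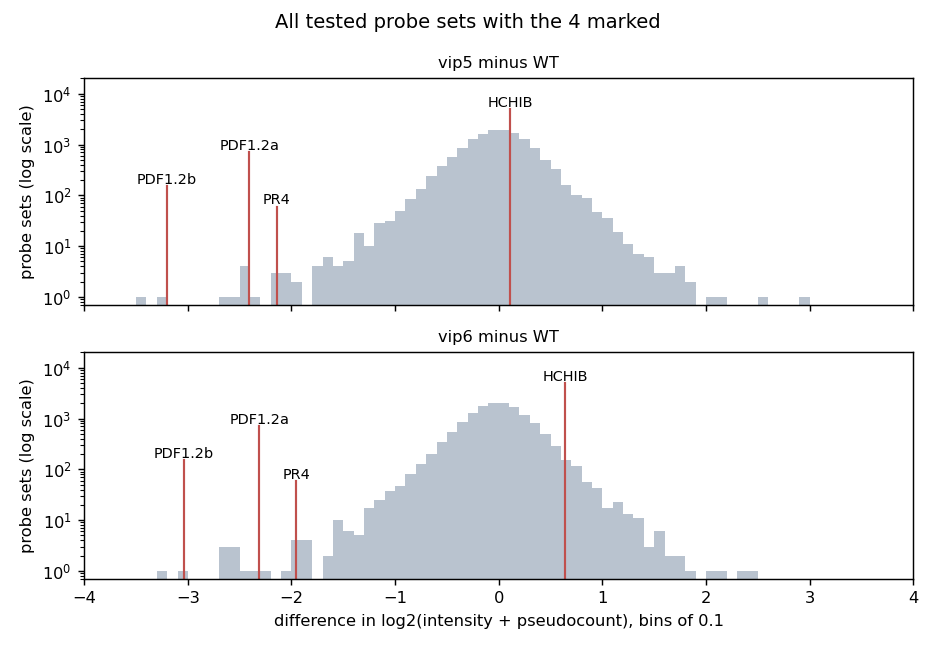
Number of tested probe sets (log axis) by log2 difference in bins of 0.1, for vip5 minus WT above and vip6 minus WT below, with the 4 probe sets marked by lines. PDF1.2b, PDF1.2a and PR4 lie in the far lower tail in both panels, and HCHIB lies at 0.11 in vip5 and 0.64 in vip6. Both defensins were tested only through their WT signals, so their place in the tail is no support for the direction.

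The mutants were then compared with each other to ask whether these genes differ by which subunit is mutated. No member passed, and none of 14323 probe sets did (0% called) in limma, with 220 (1.54%) at an unadjusted p below 0.05. The log2 difference, vip6 minus vip5, was 0.09 for PDF1.2a with a 95% interval of -0.83 to 1.02, and 0.16 for PDF1.2b with an interval of -0.63 to 0.96. The mutant signals of both defensins were close to the pseudocount or under it, and a difference there is hidden by this scale. For PR4 the difference was 0.19, with an interval of -0.37 to 0.75, and it was 0.18 within number 1 and 0.20 within number 2. For HCHIB it was 0.53, with an interval of -0.35 to 1.4, and both vip6 arrays lay above both vip5 arrays, as 25.5% of probe sets did in one direction or the other. These intervals do not show that the mutants have the same levels.

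The rest of the pathway could be read only in part. Of 98 other loci in 8 lists of jasmonate, ethylene, defensin and chitinase genes, 24 are named by a probe set and 15 of these were bright enough to be tested. None of the 15 passed in limma in vip5, vip6 or both mutants together, where 0.0768%, 0.105% and 0.356% of all tested probe sets passed in either direction. At an unadjusted p below 0.05 there were 4, 3 and 5 of the 15, beside 10.9%, 9.88% and 13.1% of all tested probe sets. Their median log2 difference was -0.29 in vip5, -0.10 in vip6 and -0.14 in both together, beside -0.0042, -0.012 and -0.0093 for all tested probe sets. No ethylene synthesis gene is named by a probe set. COI1, the JAZ repressors, MYC2, ORA59 and ERF1, which act above the members, are not named by a probe set either and were not analysed here.

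Of the upstream genes that could be read, OPCL1, an enzyme that prepares a jasmonate precursor for oxidation, read 662.7 and 589.1 in vip5, 702.1 and 873.6 in vip6, and 652.2 and 920.3 in WT. The transcription factors MYC3 and MYC4, which act beside MYC2, had log2 differences near 0, with 0.02 and 0.09 for MYC3 and -0.14 and 0.03 for MYC4 in vip5 and vip6. EIN3, the transcription factor that ethylene stabilises, had -0.01 in vip5 and -0.10 in vip6. RTE1, which promotes the function of the ethylene receptor ETR1, read 306.3 and 268.4 in vip5, 365.2 and 286.7 in vip6, and 500.2 and 444.4 in WT. Its log2 difference was -0.65 in vip5 (limma adjusted p = 0.311) and -0.49 in vip6 (limma adjusted p = 0.473).

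Among genes that act as defence products, the values differed by gene. THI2.1, a thionin of the jasmonate response, read 310.3 and 419.8 in vip5, 311.1 and 348.9 in vip6, and 644.4 and 625.8 in WT. Its mutant arrays all lay below both WT arrays, as did those of 13.2% of all tested probe sets. Its log2 differences of -0.75 and -0.87 did not pass (limma adjusted p = 0.244 and 0.206). AT3G47540, a member of the chitinase family, read 181.1 and 205.1 in vip5, 169.8 and 219.8 in vip6, and 391.4 and 563 in WT. Its mutant arrays were likewise below both WT arrays, with the same share of 13.2% beside it. It had a log2 difference of -1.13 in vip5 (limma adjusted p = 0.158) and -1.13 in vip6 (limma adjusted p = 0.157). CHI, another chitinase gene, had -0.79 and -0.76, but its WT arrays read 236.2 and 553.4, and the lower of them was within 2 units of vip5 replicate 1 at 234.9.

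The remaining tested defensins and chitinases of the lists had smaller log2 differences of both signs. LCR69 (PDF2.2), LCR68 (PDF2.3) and LCR66 (PDF2.4), defensins of the second class, gave 0.57, -0.64 and 0.56 in vip5, against 0.45, -0.33 and 0.15 in vip6. AT2G43610, AT2G43620 and AT4G01700, which are chitinase family genes, gave -0.04, -0.37 and -0.32 in vip5, against 0.08, -0.25 and -0.22 in vip6. OSM34, an osmotin of the PR5 family, had 0.36 and 0.48. The limma adjusted p of these 7 genes lay between 0.384 and 0.977 in vip5 and between 0.576 and 0.962 in vip6. PR1, BGL2 and PR5, markers of the salicylic acid response, are not named by a probe set.

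**Figure D4:**
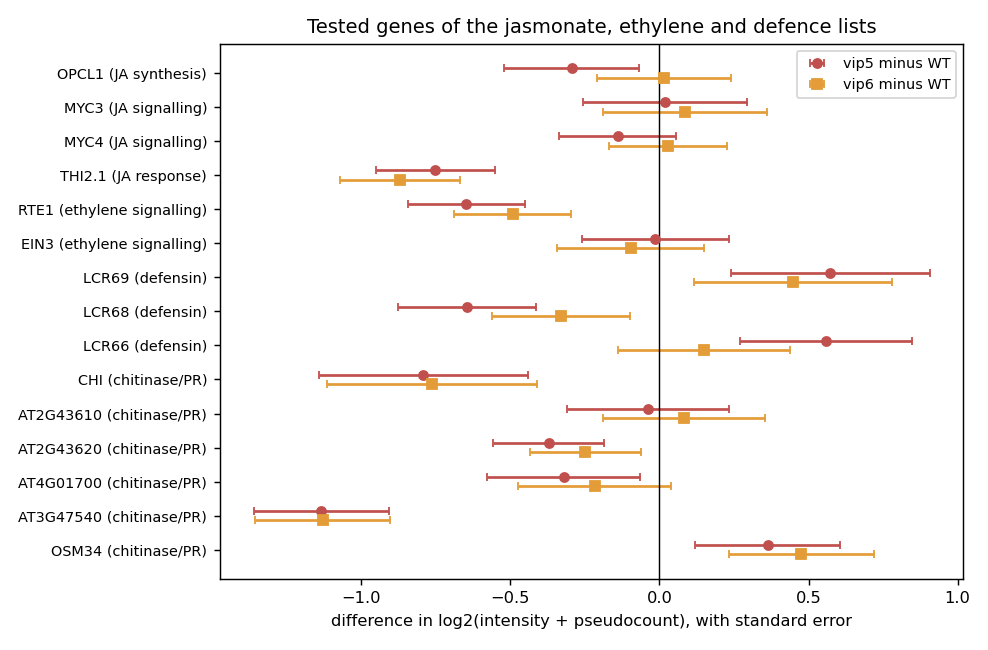
Log2 difference with its standard error for the 15 tested genes of the lists other than the members, for vip5 minus WT (circles) and vip6 minus WT (squares). AT3G47540, THI2.1 and CHI lie lowest in both mutants, and none of the 15 passed the test.

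Markers of plant organs were read beside these values, since the labels name no tissue and a bulk sample cannot tell fewer cells of a type from less RNA per cell. Of 9 root markers, 2 are named by a probe set, and none of the 2 is at 0. PYK10, a root beta-glucosidase, read 896.7 and 607.1 in vip5, 716.8 and 869.2 in vip6, and 1094.4 and 1084.8 in WT. EXPA7, a root hair expansin that was too dim to be tested, read 15.2 and 6.9 in vip5, 10.7 and 10.3 in vip6, and 51.1 and 33 in WT. The sum of both, most of it PYK10, was 614 to 912 in vip5, 728 to 880 in vip6 and 1118 to 1146 in WT. The sum and each of the 2 markers were lower on every mutant array than on both WT arrays. Of tested single probe sets 13.2% were too, so for PYK10 this says little on its own. That share does not cover the sum or the dim EXPA7. PYK10 did not pass, with a log2 difference of -0.54 in vip5 (limma adjusted p = 0.450) and -0.45 in vip6 (limma adjusted p = 0.576). The part of root RNA in the member values was not tested. Of 6 leaf markers 1 is named, RCA, which encodes Rubisco activase, at 24527 and 46440 in vip5, 20305 and 38063 in vip6, and 22676 and 32585 in WT. Of 6 flower markers 1 is named, the anther gene AT5G07230, at 168 to 199 in vip5, 144 to 196 in vip6 and 160 to 163 in WT, and neither senescence marker is.

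The probe sets most like each member over the 6 arrays were found by Pearson correlation of log2 values among 379 probe sets that name 1 gene and vary enough. All values share the same 6 arrays, and a difference between mutants and WT alone gives a high correlation, so these are descriptions. For PDF1.2a the 5 most alike were AT1G69480 (r = 0.993), AT4G22212 (0.980), AT3G46880 (0.958), AT3G05730 (0.952) and AT5G48540 (0.940). AT1G69480 read 69.8 and 58.1 in vip5, 62 and 67.9 in vip6, and 824.1 and 368 in WT, with WT replicate 1 above replicate 2 as in both defensins. For PDF1.2b they were AT4G22212 (0.997), AT1G69480 (0.984), the MADS box gene AGL87 (0.975), AT1G62500 (0.971) and AT1G59960 (0.969). AT4G22212 read 40.1 and 48.6 in vip5, 47 and 54.5 in vip6, and 169.6 and 130.1 in WT.

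For PR4 the 5 most alike were AT1G12160 (r = 0.994), AT1G31710 (0.985), AT3G46880 (0.983), AT4G19430 (0.982) and AT5G07870 (0.977). AT1G12160 read 66.8 and 34.4 in vip5, 66.2 and 46.4 in vip6, and 169.5 and 193.9 in WT. For HCHIB they were rpoC1 (0.926), petL (0.863), AT3G18930 (0.822), AT2G23950 (0.817) and AT2G20670 (0.809). The first 2 are chloroplast genome transcripts, for a subunit of the plastid RNA polymerase and for a small subunit of the cytochrome b6f complex. rpoC1 read 3439 and 2236 in vip5, 4175 and 3591 in vip6, and 4167 and 1423 in WT, lowest on WT replicate 2 as HCHIB was. The part of chloroplast RNA in the HCHIB values was not tested.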

How the data were processed

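Linear intensity values of 6 arrays, 2 each of vip5, vip6 and WT by the sample titles, were used as the authors deposited them. How the authors computed these intensity values from the scans is not stated in the labels. Trimmed means (2% off each end) of the arrays differed by at most 0.214%, so no further scaling was applied. After removal of 64 control probe sets, values were tested as log2(intensity + 39.3) with limma 3.58.1 in R 4.3.3. The model had 3 group means and 3 residual degrees of freedom, and its two-sided p-values were adjusted by Benjamini-Hochberg over 14323 probe sets, with a threshold of 0.05. The filter was the 40th percentile on at least 2 arrays, and fits without an array kept the same probe sets.

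Genes were named through the platform annotation and the TAIR10.1 gene table. Of all probe sets, 13513 name 1 gene, 503 several and 8794 are not listed. Members and lists were chosen with earlier results of these data known. All tested genes of the lists are named, and for likeness the 5 highest correlations at an SD of at least 0.5. The mutant labels were not checked against VIP5 and VIP6, which no probe set is paired with here. Promoter sequences were not used here. Same-numbered arrays deviated together, with a correlation over probe sets of 0.306 between vip5 and WT, 0.308 between vip6 and WT and 0.655 between vip6 and vip5. With 2 numbers and no label for what they mark, this does not pair the arrays. The model was tested on simulated data, and precision is limited by having few arrays. Plots used Python 3.11.15 and matplotlib 3.10.9.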

Additional observations from a re-analysis of the deposited data

How the results depend on the processing

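Fold changes of PDF1.2a, PDF1.2b and PR4 against WT kept their direction under every alternative run, and their calls did not. As their mutant and WT arrays do not overlap, leaving out an array could not turn that direction. Members called were 2 in vip5, 2 in vip6 and 3 in both mutants together, where 0.0768%, 0.105% and 0.356% of all tested probe sets passed. All but PR4 were defensins, tested only through their WT signals. Members called became 1 in vip5 and 1 in vip6 with a pseudocount of 16, PDF1.2b in each. They became 0 in all 3 contrasts without the filter, and 0 in vip6 with only the groups compared. Without the filter more probe sets are tested. With 1 array left out they ranged from 0 to 2 in vip5, were 0 in vip6 in every case, and ranged from 0 to 2 in both together. The direction of HCHIB turned, with a range of -0.48 to 0.70 in vip5 and -0.21 to 0.96 in both together, and so did vip6 minus vip5 for PDF1.2a (-0.061 to 0.25), PDF1.2b (-0.15 to 0.48) and PR4 (-0.051 to 0.43). The replicate number as a block changed the PDF1.2a call, with an adjusted p of 0.0162 in vip5 and 0.0203 in vip6. With the block, 1 of the 15 listed genes was called in vip5 and 1 in vip6, AT3G47540 in each, and 2 in both together, AT3G47540 and THI2.1. The block called 313, 253 and 582 of all 14323 probe sets there. Listed genes called were again 1, 1 and 2 with the block and quantile normalization, beside 268, 175 and 499 probe sets. Without the block, 1 listed gene passed in both together at a threshold of 0.10, where 202 of 14323 probe sets did.

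The 11 probe sets called in vip5 became 2 without the filter, 17 with an intensity trend, 18 with only the groups compared, 34 at 0.10 and 313 with the block, and 0 to 18 with 1 array left out. The 15 in vip6 became 1 without the filter, 5 with only the groups compared, 39 at 0.10 and 253 with the block, and 0 to 5 with 1 array left out. The 51 in both together became 2 without the filter, 84 with the trend, 202 at 0.10 and 582 with the block, and 0 to 29 with 1 array left out. The 0 in vip6 minus vip5 became 1 with the block. Chosen after seeing the data, the block with quantile normalization gave 268, 175 and 499. The block without the filter, also chosen then, gave 0, 0 and 2 probe sets, with 0 members in all 3. The cause of these shifts was not tested. No background value is at hand for the dim defensins.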

Other observations

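Of the listed defence genes 9 were too dim to be tested. PDF2.5, a defensin of the second class, read 22.2 and 35 in vip5, 29.1 and 43.2 in vip6, and 7.8 and 6.1 in WT, so its signal was higher on all 4 mutant arrays, within the dim part of the array. LCR72 (PDF2.6) read 93.3 and 88.3 in vip5, 87.5 and 84.6 in vip6, and 69.7 and 72.8 in WT. It too was higher on all 4 mutant arrays. The share of all probe sets that were higher on every mutant array was not counted, so neither pattern is read as a result. PDF1.4 read 121.6 and 73.4 in vip5, 87.9 and 67.6 in vip6, and 74.5 and 57 in WT, and its groups overlapped. LCR67 (PDF1.1), of the same class as the PDF1.2 defensins, read 1.8 to 6.3 over the 6 arrays. AT5G43410 (ERF96), an ERF transcription factor, read 8.4 and 2.1 in vip5, 5.1 and 4.5 in vip6, and 26.7 and 4.2 in WT. PDF2.1 read 3.4 and 1.9 in vip5, 35.9 and 19.4 in vip6, and 2.5 and 16.4 in WT. The chitinase family genes AT2G43580, AT2G43590 and AT1G02360 overlapped between vip6 and WT. AT2G43580 read 5.4 and 5.1 in vip5, 28.2 and 13.1 in vip6, and 27.1 and 3.8 in WT. AT2G43590 read 97.1 and 70.2 in vip5, 58 and 75.2 in vip6, and 49.2 and 73.1 in WT. AT1G02360 read 33.2 and 4.5 in vip5, 34.6 and 6.6 in vip6, and 48.7 and 29 in WT. None of these dim values was tested.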
